A study of Mus musculus with 11 samples.

Results

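The radial glia signature genes are 9 transcripts listed by symbol, Fabp7, Dbi, Nes, Vim, Ptprz1, Tnc, Hopx, Mfge8 and Lpar1, and all 9 were found among the 48440 genes of the RNA-seq count table and in both scRNA-seq matrices. They were followed in mouse material of embryonic stage E14.5. RNA-seq was available for 3 WT and 3 Syncrip cKO cultures of neural progenitor cells (NPCs), which had been taken from the lateral ventricles and passaged in medium with EGF and bFGF. scRNA-seq was available for the dorsal telencephalon of 1 WT embryo and 1 cKO embryo of the same litter. The cKO animals carried Syncrip alleles with loxP sites and a Cre, on a C57BL/6 background. In the neocortex the Cre is driven by Emx1, which acts in dorsal progenitors and their progeny and spares the ventral ganglionic eminence (GE). The labels call the cultures only WT and Syncrip cKO, and they do not say whether the 3 cultures of a genotype came from separate embryos. Y-linked counts differed within each genotype (8899, 5903 and 1 in WT, 9232, 0 and 0 in cKO). The cultures of a genotype thus did not all come from the same embryo. Their p-values measure the spread between these cultures, part of which may still be technical.

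Radial glia, also called apical progenitors (APs), are the stem cells of the developing neocortex. They line the ventricle, send a long fiber to the pial surface, and give rise to intermediate progenitors (IPs) and neurons. Their signature is a mixed one: Nes and Vim encode the intermediate filaments of the fiber, Fabp7 and Dbi encode carriers of fatty acids and of acyl-CoA, Ptprz1 and Lpar1 encode receptors at the surface, Tnc and Mfge8 encode secreted proteins, and Hopx encodes a small homeodomain protein that does not bind DNA itself. Syncrip, the deleted gene, encodes an RNA-binding protein.

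The cultures held 16962903 to 22708400 counts each, and the signature genes took 0.782% to 0.898% of the counts of a WT culture and 1.04% to 1.12% of those of a cKO culture. Counts of Syncrip over its whole gene were 79.2 CPM ± 1.09 (CPM, counts scaled to the library total; SD, n = 3) in WT and 86.8 ± 4.69 in the cultures labelled cKO (adjusted p = 0.18, edgeR quasi-likelihood test). The paper reports that RNA-seq tracks of its E14.5 neurospheres showed the floxed exons to be deleted in cKO. The whole-gene count includes exons outside the floxed part, so it does not check the labels, and every direction below rests on them. The same holds for the 3′ tags of scRNA-seq, where the Syncrip level in APs was 315 CPM in WT against 323 CPM in cKO, and in the GE 307 CPM against 266 CPM. The WT and cKO libraries kept 8214 and 9560 cells with a median of 11705 and 11012.5 UMIs (unique molecules), and 22 barcodes occurred in both. The cells fell into 26 clusters, made without the signature genes and named from other markers. APs were 3 of these clusters, with 955 WT and 1316 cKO cells. The 10 named classes are written below without the suffix "-like" that each of them carries. The class called meningeal fibroblasts also held pericyte markers. Since each genotype had 1 embryo, scRNA-seq differences have no test, and their 95% intervals cover counting error only. The 6 red blood cell markers, which APs should lack, summed to 88.4 CPM in WT APs and 289 CPM in cKO APs. Whether free RNA or other cells gave this signal was not tested, nor was its part in the results.

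In the cultures, 6 of the 9 genes changed, against 39.5% of the 14432 genes tested. Fabp7, Nes, Ptprz1 and Hopx were higher in cKO (4 of 9, background 19.7%), Dbi and Lpar1 were lower (2 of 9, background 19.8%), and Vim, Tnc and Mfge8 did not pass the test. The genotypes did not overlap for 7 of the 9, against 50.4% of all genes. The median log2 fold change over the 9 genes was 0.23, and over all genes tested it was 0.00. In APs of the embryos, Nes, Tnc and Hopx were past a log2 ratio of 0.2, each of them downward (3 of 9 in either direction against 22.7% of 10385 genes, 3 of 9 downward against 10.1%, 0 of 9 upward against 12.6%), and the median log2 ratio of the 9 was -0.04 against -0.01 for all genes. In bulk cultures, fewer cells of a type and less RNA per cell cannot be told apart.

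**Figure D1:**
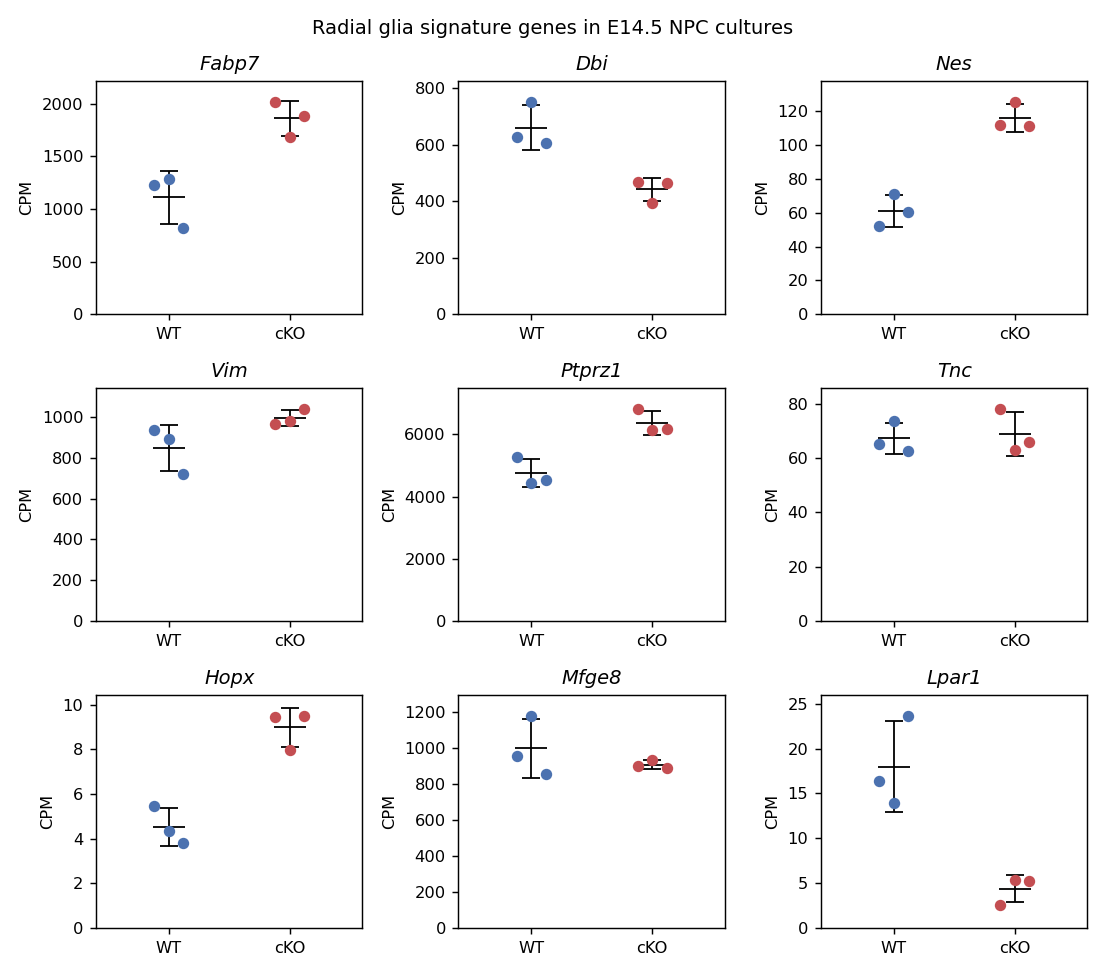
CPM of the 9 genes in each culture (y axis, linear from 0), with WT in blue and cKO in red, and the mean and SD of the 3 cultures in black. The genotypes are apart for all but Tnc and Mfge8.

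The intermediate filament genes were followed first. Nes (chr3:87971078-87980451, mm10, plus strand) gave 52.0, 71.1 and 60.6 CPM in WT cultures, against 112, 125 and 111 CPM in cKO cultures. Every cKO culture lay above every WT culture, and the log2 fold change was 0.92 ± 0.10 (SE), with an adjusted p = 1.16e-05 in edgeR. In the embryos Nes was at 191 CPM in WT APs and 157 CPM in cKO APs, a log2 ratio of -0.28 (95% interval -0.36 to -0.20). The direction in APs was thus opposite to that in the cultures. The decrease was seen in both large AP clusters, with a log2 ratio of -0.36 in cluster 6 and -0.20 in cluster 10, where genes of mitosis led. After each cell was thinned to 5000 UMIs, 56.4% of 776 WT APs and 47.1% of 1139 cKO APs held a Nes UMI (70.8% and 69.8% before thinning). Migrating neurons, which should lack Nes, gave 3.78% and 4.81%.

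APs were not the class with the highest Nes level. Endothelial cells, in which Nes is also known to be made, gave 209 CPM in WT (interval 184 to 236, 24 cells) and 258 CPM in cKO (229 to 290, 33 cells). In WT this was within counting error of the AP level (AP over endothelial 0.914, interval 0.803 to 1.04), and in cKO it was above it (0.609, 0.539 to 0.691). IPs held 32.6 CPM in WT against 33.6 CPM in cKO, and immature neurons 9.28 and 9.18 CPM.

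Vim (chr2:13573927-13582826, plus strand) gave 936, 892 and 721 CPM in WT cultures, against 968, 978 and 1039 CPM in cKO cultures. The groups did not overlap, but the log2 fold change of 0.23 ± 0.10 did not pass the test (adjusted p = 0.0829 in edgeR). The call depended on the fit: the adjusted p was 0.0158 without WT culture 1 and 0.0212 with the sex of the culture, taken from its Y-linked counts, as a covariate. Sex was not balanced between the genotypes. The Y-linked counts were 8899, 5903 and 1 in WT cultures 1 to 3, and 9232, 0 and 0 in cKO cultures 1 to 3. In APs Vim stood at 1925 CPM in WT against 1895 CPM in cKO, a log2 ratio of -0.02 (-0.05 to 0.00). APs had the highest level of all classes, though not by far: endothelial cells held 1657 CPM and meningeal fibroblasts 1244 CPM in WT. A thinned UMI of Vim was found in 99.2% of WT APs, 100% of the 23 WT endothelial cells deep enough, and 34.0% of WT migrating neurons.

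Vim is also the gene whose promoter window carried a TATA box close to the start of transcription. RefSeq promoters (GRCm38.p6, 250 bases before to 50 after each start) were matched for all 9 genes, with 14 entries in all, and searched on both strands for TATAAA, for CCAAT and for GTGGGAA, the core recognized by RBPJ, the DNA-binding partner of Notch, whose activity maintains radial glia. TATAAA was in the windows of Vim and Tnc and in 13.6% of all 32851 windows. GTGGGAA was in those of Tnc and Mfge8 and in 6.38% of all. CCAAT was in those of Dbi, Fabp7, Hopx, Lpar1 and Vim and in 37.4% of all. The TATAAA match nearest to a start and the GTGGGAA matches follow, with the match in capitals, since fewer windows hold these motifs than hold CCAAT. Distances are those of the first base of the match. The Vim stretch is chr2:13574268-13574295 on the plus strand, its match beginning 32 bases before the start. The Tnc stretch is chr4:64047001-64047029 and the Mfge8 stretch chr7:79149126-79149154, both read on the minus strand. The Tnc match begins 3 or 82 bases before the 2 annotated starts, and it runs across the nearer one. The Mfge8 match begins 83 bases before its start and is the reverse complement, so GTGGGAA itself lies on the plus strand. A match describes the letters and says nothing of binding.
Vim: cctaacagtgtTATAAAagcagcgccct
Tnc: aaaaaaaaaaaGTGGGAAaggatgtctgg
Mfge8: agccctccctcTTCCCACtgtggtctcgg

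Fabp7, the brain fatty acid binding protein and a classic radial glia marker (chr10:57784881-57788450, plus strand), gave 1231, 1282 and 821 CPM in WT cultures, against 2016, 1683 and 1889 CPM in cKO cultures. All cKO cultures were above all WT cultures, a log2 fold change of 0.75 ± 0.14 (adjusted p = 9.41e-04, edgeR). WT culture 3 was the lowest of the 6. In APs the levels lay close together, at 3482 CPM in WT against 3551 CPM in cKO (log2 ratio 0.03, interval 0.01 to 0.05). Its AP level was 12.1 times that of IPs (11.7 to 12.6) and 57.4 times that of immature neurons in WT. A thinned UMI was present in 98.1% of WT APs and 96.9% of cKO APs, but also in 54.9% of WT migrating neurons and in 20.0% of the 15 WT red blood cells deep enough, which should lack it, so low levels in other classes cannot be read as expression.

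Dbi, which encodes the acyl-CoA binding protein (chr1:120113280-120121078, minus strand), moved the other way in the cultures, from 625, 750 and 604 CPM in WT to 467, 394 and 464 CPM in cKO. The groups did not overlap, and the log2 fold change was -0.58 ± 0.10 (adjusted p = 4.89e-04, edgeR). In APs no such difference was seen, with 2462 CPM in WT, 2480 CPM in cKO and a log2 ratio of 0.01 whose interval ran from -0.01 to 0.03. Dbi was highest in APs, 3.69 times the IP level in WT and 3.06 times in cKO. IPs had 667 CPM in WT against 811 CPM in cKO, a log2 ratio of 0.28 (0.23 to 0.33). In the cultures, per kilobase of exon, Fabp7 was the most abundant of the 9 genes in WT at 889 CPM per kb, followed by Dbi at 464 and Ptprz1 at 334, and Hopx was the lowest at 2.99.

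**Figure D2:**
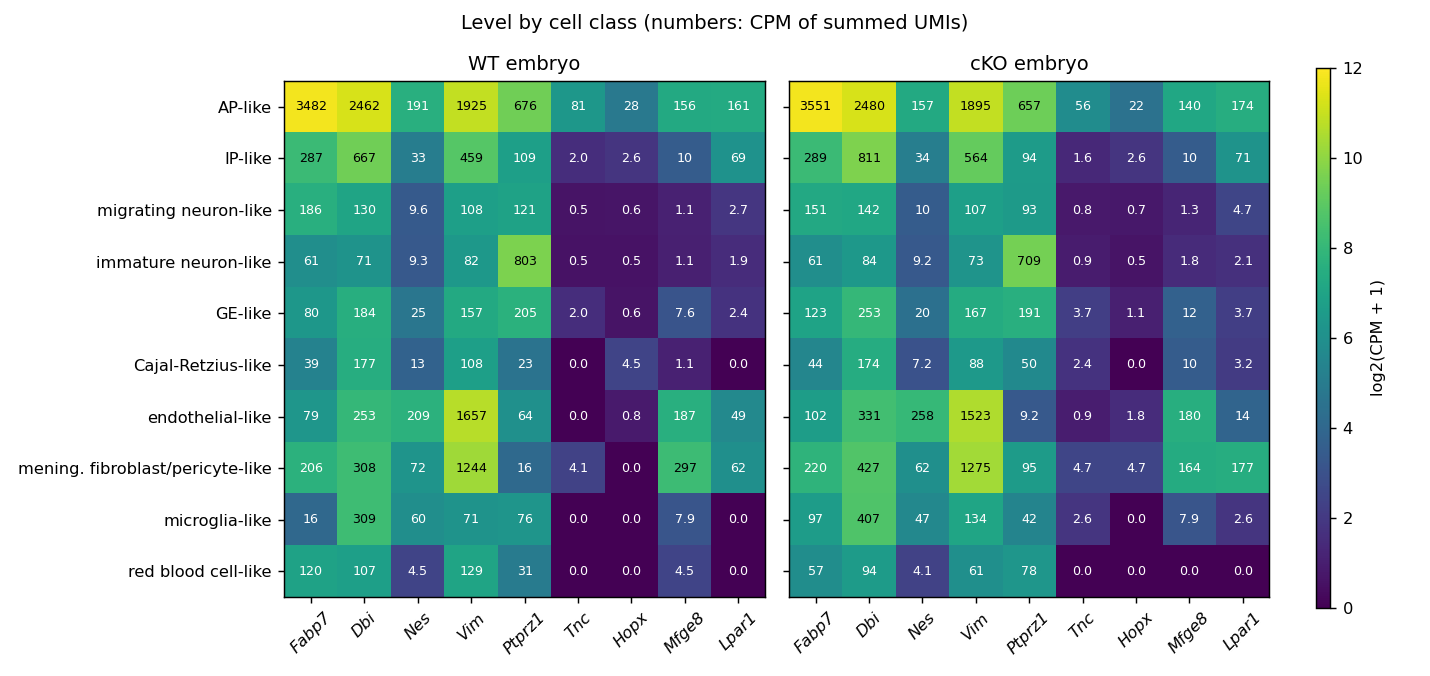
CPM of summed UMIs for each gene (columns) in each named class (rows), for the WT embryo on the left and the cKO embryo on the right, with color on a log2(CPM + 1) scale. Fabp7, Dbi, Vim, Tnc and Hopx peak in APs in both embryos, Nes in endothelial cells and Ptprz1 in immature neurons.

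Among the receptors, Ptprz1, a receptor tyrosine phosphatase that binds pleiotrophin and contactin (chr6:22875502-23052916, plus strand), gave 5288, 4441 and 4545 CPM in WT cultures, against 6816, 6126 and 6173 CPM in cKO cultures. The groups did not overlap, and the log2 fold change was 0.42 ± 0.10 (adjusted p = 0.00473, edgeR). In the embryos Ptprz1 was not restricted to APs: immature neurons held 803 CPM in WT against 709 CPM in cKO, above the 676 and 657 CPM of APs. It was low between them in the lineage, with IPs at 109 CPM in WT against 93.5 CPM in cKO, and migrating neurons at 121 and 93.0 CPM. The genotype log2 ratio was -0.04 in APs (-0.08 to -0.00) and -0.18 in immature neurons (-0.20 to -0.15). The clusters of immature neurons were also uneven, cluster 8 holding 375 of 2321 WT and 495 of 2379 cKO cells. Ratios by cluster were not computed for them. No single ratio is given for migrating neurons, since the class had different clusters in the embryos. Cluster 11 held 138 of its 1998 WT cells and 519 of its 2255 cKO cells. By cluster the log2 ratio was -0.57 in cluster 1 (-0.66 to -0.47), -0.07 in cluster 2 (-0.29 to 0.15) and 0.66 in cluster 11 (0.36 to 0.96). After thinning, 84.0% of WT APs, 90.5% of WT immature neurons and 20.7% of WT IPs held a UMI.

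Lpar1, a receptor for lysophosphatidic acid (chr4:58435255-58553898, minus strand), showed the largest change in the cultures. It gave 16.3, 14.0 and 23.6 CPM in WT and 2.60, 5.30 and 5.26 CPM in cKO. Every cKO culture was below every WT culture, at a log2 fold change of -2.05 ± 0.25 (adjusted p = 4.94e-05, edgeR). In APs Lpar1 was slightly higher in cKO, at 174 against 161 CPM (log2 ratio 0.12, interval 0.04 to 0.19). By scored cell cycle phase the log2 ratio was 0.42 in G1 (0.23 to 0.60), 0.05 in S (-0.09 to 0.18) and 0.10 in G2/M (-0.02 to 0.23). IPs kept 69.4 CPM in WT, so Lpar1 fell less between APs and IPs (2.32 times) than the other signature genes in WT. At a finer clustering, which parts fibroblasts from pericytes, meningeal fibroblasts held 112 CPM in WT (41 UMIs in 89 cells, interval 80.4 to 152), below APs. In cKO they held 237 CPM (144 UMIs in 90 cells, interval 199.9 to 279), above the AP level. Pericytes held 10.9 and 28.5 CPM.

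Lpar1 is also a gene of the oligodendrocyte lineage, and markers of other cell types moved in the cultures. Of 8 oligodendrocyte lineage markers, all tested, 2 were higher and 3 lower, where 19.7% of all genes tested were higher and 19.8% lower. Their summed levels were 4016 to 4328 CPM in WT and 2985 to 3547 CPM in cKO. Of 8 astrocyte markers 1 was higher and 6 were lower, against the same 19.7% and 19.8%, the summed level being 4286 to 4678 CPM in WT and 2694 to 3003 CPM in cKO. Of 17 neuron markers tested 13 were lower and 0 higher (background 19.8% and 19.7%), and their summed level was 3208 to 3451 CPM in WT and 2824 to 2929 CPM in cKO. The part of these shifts in the changes of the signature genes was not tested.

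The secreted proteins were Tnc and Mfge8. Tnc, an extracellular matrix glycoprotein and ligand of Ptprz1 (chr4:63959785-64047015, minus strand), gave 65.2, 73.8 and 62.7 CPM in WT cultures, against 78.1, 62.9 and 65.9 CPM in cKO cultures. The groups overlapped and the log2 fold change was 0.04 ± 0.10 (adjusted p = 0.792, edgeR). Of its span, 77.0% is shared with the antisense gene 8030451A03Rik, and 2129 of its 7772 exon bases lie outside that gene, so that the culture counts may cover only part of the transcript and the 2 genes cannot be told apart if strand was not used.

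In APs, its highest class, Tnc showed the largest difference of the 9 genes. It was at 81.2 CPM in WT (1046 UMIs) and 56.0 CPM in cKO (1065 UMIs), a log2 ratio of -0.53 (-0.66 to -0.41). The value was lower in cKO in all 3 AP clusters, by a log2 ratio of -0.34 in cluster 6 (-0.50 to -0.17), -0.90 in cluster 10 (-1.11 to -0.70) and -1.31 in cluster 13, whose cells had a median of 2780 UMIs (-2.46 to -0.25). The share of thinned APs with a Tnc UMI was 23.1% in WT (20.1 to 26.2, exact binomial interval) and 15.6% in cKO (13.6 to 17.9). Before thinning it was 32.7% and 23.4%, and in WT migrating neurons it was 0.414% after thinning. Tnc in WT APs was 41.1 times the IP level, and no named class outside APs reached 5 CPM.

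Mfge8, a secreted bridge between phosphatidylserine and integrins (chr7:79133768-79149060, minus strand), gave 959, 1181 and 858 CPM in WT cultures, against 900, 937 and 891 CPM in cKO cultures. The groups overlapped (log2 fold change -0.14 ± 0.11, adjusted p = 0.33, edgeR). APs held 156 CPM in WT against 140 CPM in cKO (log2 ratio -0.16, interval -0.24 to -0.07), and the difference was in cluster 10 (-0.47, -0.60 to -0.34) and not in cluster 6 (0.05, -0.06 to 0.17). The class of meningeal fibroblasts held 297 CPM in WT against 164 CPM in cKO, and endothelial cells 187 and 180 CPM. At the finer clustering the pericytes held 539 CPM in WT (27 cells) and 489 CPM in cKO (18 cells), against 54.6 and 32.9 CPM in the fibroblasts. Within the neural lineage its AP level was 15.2 times that of IPs in WT.

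Hopx (chr5:77086988-77115121, minus strand), known as a marker of outer radial glia in primates, had the lowest WT level of the 9 per kilobase of exon. It gave 5.45, 4.34 and 3.79 CPM in WT cultures, against 9.47, 7.98 and 9.50 CPM in cKO cultures. All cKO cultures lay above all WT cultures, at a log2 fold change of 0.99 ± 0.18 (adjusted p = 6.75e-04, edgeR). The span of Hopx is shared to 27.6% with its antisense gene Hopxos. In APs Hopx stood at 27.6 CPM in WT (356 UMIs) and 22.1 CPM in cKO, a log2 ratio of -0.32 (-0.53 to -0.11). The share of thinned APs with a UMI was 9.79% in WT (7.79 to 12.1) and 10.8% in cKO (9.06 to 12.7). It did not follow that order, so no order is read from it. Thinned APs held a mean of 0.113 Hopx UMIs per cell in WT and 0.114 in cKO. The lower level in cKO thus rests on summed UMIs. It was not seen at equal depth, where 76 WT and 123 cKO cells held a UMI, too few to decide. Within APs, Hopx was low in cells scored as G1 (9.71 CPM in WT) and higher in those scored as S (35.3 CPM) and as G2/M (28.3 CPM).

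**Figure D3:**
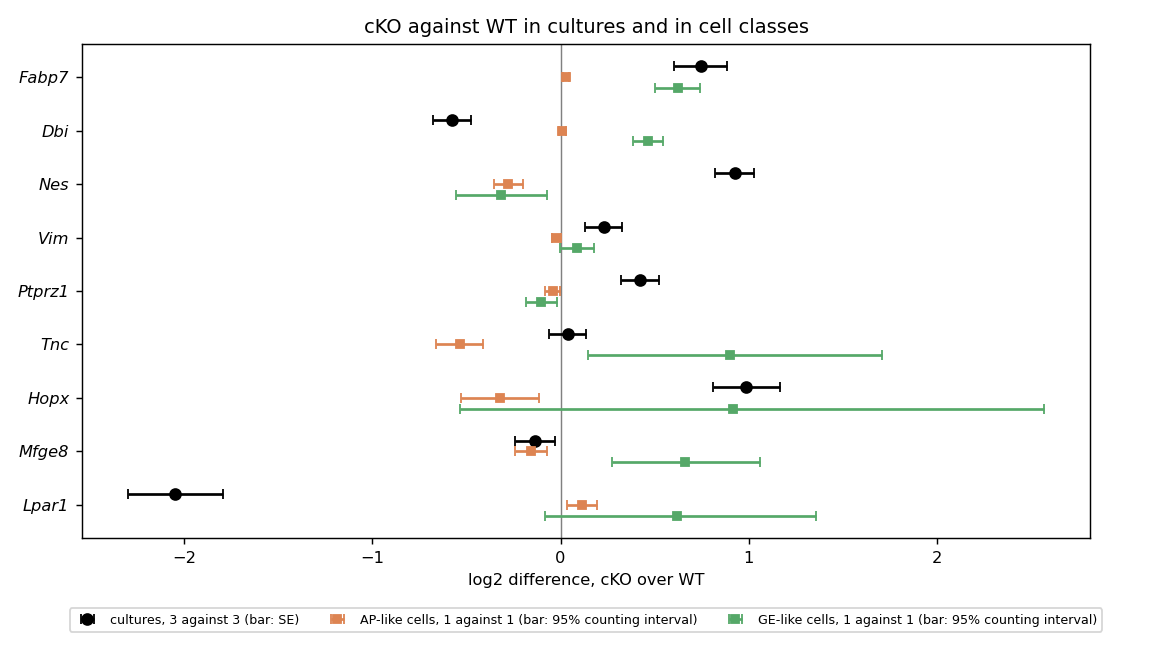
log2 difference of cKO over WT (x axis) for each gene in the cultures (black, SE), in APs (orange) and in GE cells (green), the latter with 95% counting intervals. Nes and Hopx lie above 0 in the cultures and below 0 in APs, Lpar1 the other way round, and Tnc is lowest in APs.

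Within APs, several of the genes differed more between scored cell cycle phases than between the embryos. Fabp7 was at 1876 CPM in WT cells scored as G1, 4443 CPM as S and 3387 CPM as G2/M, and at 2230, 4142 and 3368 CPM in cKO. Tnc peaked in S in both embryos, at 134 CPM in WT against 79.8 CPM in cKO, with 58.7 and 39.9 CPM in G2/M. Vim and Lpar1 were instead highest in G1 (Vim 2358 CPM and Lpar1 223 CPM in WT). Nes was highest in G2/M, at 222 CPM in WT against 181 CPM in cKO, and Dbi varied least, between 2440 and 2491 CPM in WT. Phase calls are scores from marker transcripts, so they stand for ranges of a score.

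**Figure D4:**
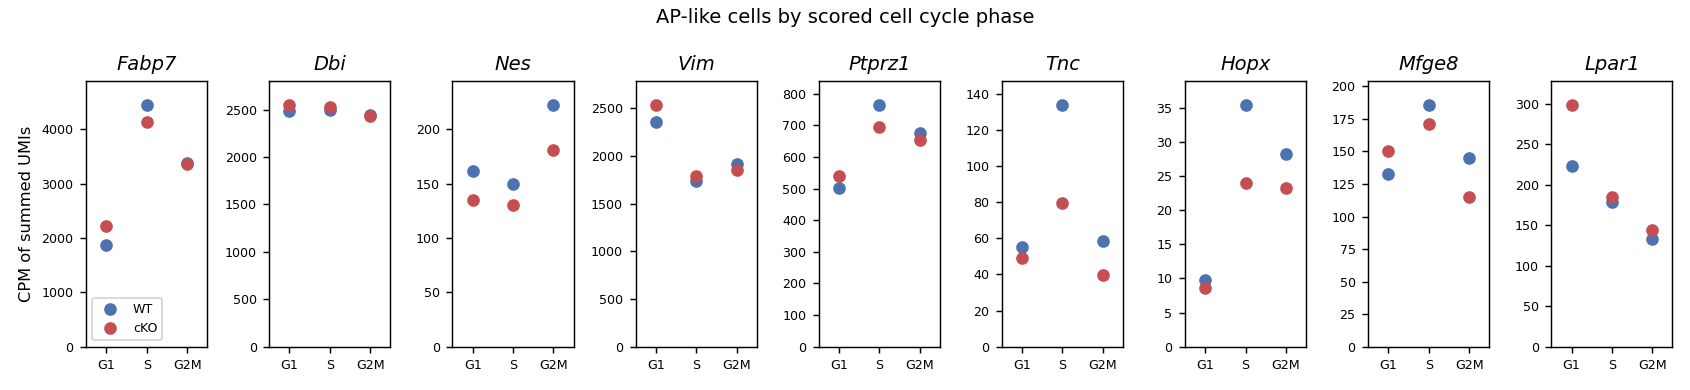
CPM of summed UMIs of the 9 genes in APs by scored cell cycle phase (x axis), WT in blue and cKO in red, y axes linear from 0. Fabp7, Tnc, Ptprz1, Mfge8 and Hopx are highest in S, Vim and Lpar1 in G1, and Nes in G2/M.

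The genes were seldom all seen together in 1 cell. At 5000 UMIs a WT AP held UMIs of a median of 6 of the 9 genes and 42 UMIs of the signature, and a cKO AP 6 genes and 41 UMIs. At least 7 of the 9 were found in 24.6% of WT APs and 20.1% of cKO APs, against 0.145% of WT IPs and 0% of the 1932 WT migrating neurons, which allows a share of up to 0.155%. IPs held a median of 3 genes in both embryos. Of the WT APs, 179 were too shallow for this count, and 177 of the cKO APs.

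**Figure D5:**
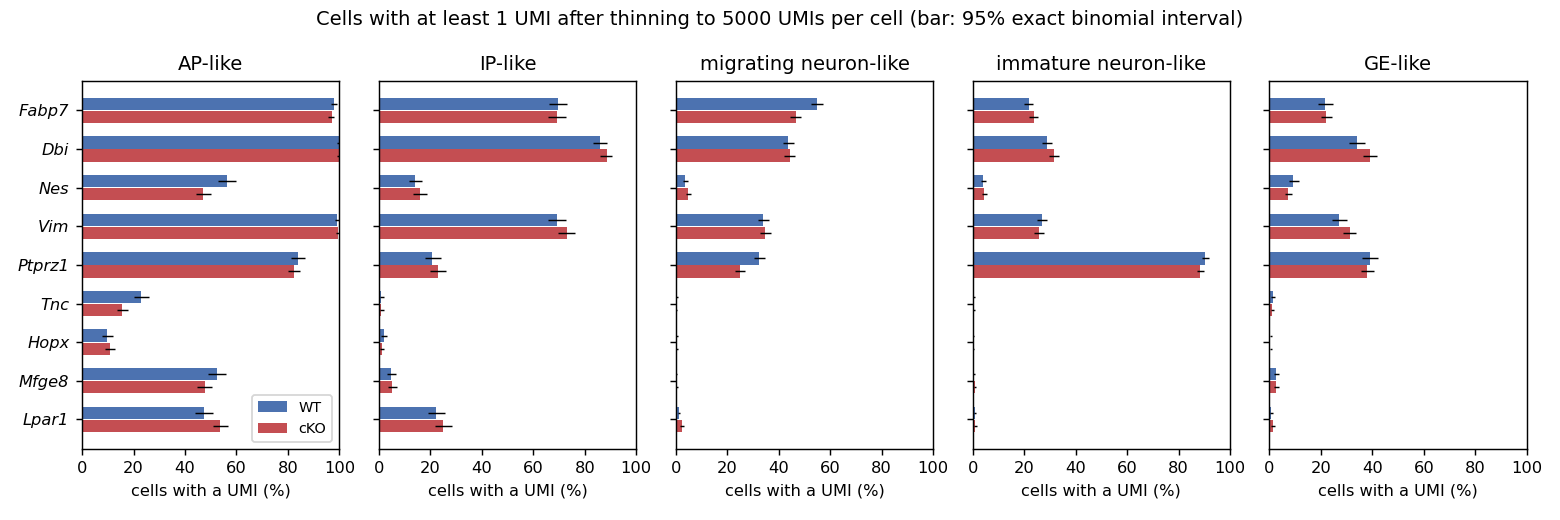
Share of cells with at least 1 UMI of each gene after thinning to 5000 UMIs per cell (x axis, percent) in the 5 classes of the neural lineage, WT in blue and cKO in red, with 95% exact binomial intervals. Tnc and Hopx are nearly limited to APs, and Ptprz1 is in most APs and most immature neurons.

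The GE served as a population outside the reach of Emx1-Cre. It held 1192 WT and 1643 cKO cells, and the signature was low there, with Fabp7 at 80.0 CPM in WT against 123 CPM in cKO. Red blood cells, which should lack Fabp7, held 120 CPM in WT (79.3 to 175) and 57.2 CPM in cKO (31.3 to 96.0). The cKO value lay below that of the cKO GE. Red blood cells were also shallower, with a median of 3569.5 UMIs in WT and 3099.5 in cKO. GE cells had 8139.5 and 7740, so red blood cells give only a rough floor. After thinning, 21.7% of WT GE cells and 22.1% of cKO GE cells held a Fabp7 UMI, against 20.0% of the 15 WT red blood cells, so the class-wide Fabp7 values are not read as expression or as a difference. Dbi was at 184 CPM in WT against 253 CPM in cKO (log2 ratio 0.46, 0.38 to 0.54), with red blood cells at 107 and 94.0 CPM. Mfge8 was at 7.63 and 12.1 CPM (0.66, 0.27 to 1.06), with 1 UMI in the WT red blood cells and 0 in those of cKO. Its cycling progenitors were in cluster 14, with 134 WT and 172 cKO cells. In these Fabp7 was at 169 CPM in WT against 373 CPM in cKO (log2 ratio 1.14, 0.97 to 1.32), the WT level lying within the interval of the WT red blood cells. Mfge8 was at 27.0 and 49.9 CPM, and Tnc rested on 6 and 23 UMIs. Nes was at 80.1 and 66.5 CPM (log2 ratio -0.27, -0.58 to 0.04). The 11 AP markers together gave 1245 CPM in WT against 1303 CPM in cKO in this cluster, and Emx2, a dorsal gene, 20.0 and 16.3 CPM. The Cre is not expected to act in these cells, although Syncrip itself was lower in the cKO GE (266 against 307 CPM, log2 ratio -0.21, interval -0.28 to -0.14). With 1 embryo against 1 the genotype cannot be told apart from other differences between the embryos.

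Genes most like each member were sought over the 10 named classes, by Pearson r of log2(CPM + 1) among 12556 genes. The classes share libraries and differ in depth, so r is a description. For Fabp7 these were Crb2, Ecrg4 and Prkg2 (r = 0.96 each), for Dbi Pax6os1 (0.95), Aldoc (0.94) and Hmga2 (0.93), for Tnc Ankfn1 (0.97), Rbm20 and Psph (0.96 each), and for Hopx Mt3, Nim1k and BC006965 (0.97 each). For Nes they were Erf (0.98), Phactr2 (0.96) and Cdk2 (0.95), for Vim Tcf7l1, Ajuba (0.98 each) and Trip6 (0.97), for Mfge8 Plce1, Pawr (0.98 each) and Ajuba (0.97), for Lpar1 Nfatc4, Hacl1 (0.97 each) and Pard3bos1 (0.96), and for Ptprz1 Dbpht2 (0.97), Myo5b (0.93) and Sybu (0.91). Ajuba appeared for both Vim and Mfge8. Among the members, the likeness was highest between Mfge8 and Vim (0.95) and Lpar1 and Vim (0.93), and lowest between Mfge8 and Ptprz1 (-0.14).

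Other radial glia genes were 22 in a list that included transcription factors, Notch effectors, receptors, other membrane proteins and metabolic genes. The 21 tested in the cultures gave 5 higher (background 19.7%) and 11 lower (background 19.8%). Their median log2 fold change was -0.32 against 0.00 over all genes. The largest rise was that of Hes1, a Notch effector, from 4.91 CPM ± 0.438 to 35.1 ± 3.26 (log2 fold change 2.84). It was followed by Moxd1 (0.74), Cdon, a hedgehog co-receptor (0.68), and Hes5 (0.49). The largest falls were those of Fam107a (-3.65), Prom1, which encodes a protein of apical membrane protrusions (-1.26), Id4, an inhibitor of bHLH factors (-1.07), and Aldoc, a glycolytic enzyme (-0.89). Sox2 was listed at 0 in every culture, and its span lies wholly within that of Sox2ot, so it gave no value. In APs 20 of the 22 genes had at least 200 UMIs, with 3 past a log2 ratio of 0.2 upward (background 12.6%) and 4 downward (background 10.1%) and a median of -0.05. Hes1 was higher in both settings (0.34 in APs), Hes5 was higher in the cultures and lower in APs (-0.25), and Id4 was lower in the cultures and higher in APs (0.29).

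Of 22 partners and relatives, 18 were tested in the cultures and gave 5 higher and 4 lower, shares near the 19.7% and 19.8% of all genes, so the counts are not a result about this list. Among ligands and partners of Ptprz1, Ptn rose (log2 fold change 0.33), Cntn1 rose (0.34) and Ptprg, its closest relative, rose most (0.63). Of the integrins, which bind Tnc and Mfge8, Itgb5 rose (0.41) and Itgb3 fell (-0.87). Edil3, a relative of Mfge8, fell (-0.52), Syne2, a linker of nucleus and cytoskeleton, fell (-0.50), and Acbd3, a relative of Dbi, fell (-0.36). In APs 13 of the 22 had at least 200 UMIs, with 2 past 0.2 upward (background 12.6%), 1 downward (background 10.1%) and a median log2 ratio of -0.10. Edil3, which fell in the cultures, was higher in cKO APs (0.36, interval 0.15 to 0.56).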

How the data were processed

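For RNA-seq, the deposited values are raw counts per gene and culture, which the authors made from reads aligned to mm10 with HISAT2. What counted them, on which annotation and with which strand setting was not given in the sources used here. Files of scRNA-seq hold unnormalized UMI counts, deposited as Cell Ranger 7.0.0 wrote them for its filtered barcodes. The 3 LACE-seq samples were not analysed here. The members and gene lists were chosen with earlier results of these data known.

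Counts were tested in R 4.3.3 with edgeR 4.0.16 (filterByExpr, TMM, robust quasi-likelihood, Benjamini-Hochberg over 14432 genes, threshold 0.05), and SEs were taken from the F statistic. limma 3.58.1 and DESeq2 1.42.0 served as alternatives. Exon lengths are from GENCODE on the same assembly.

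Cells were kept from 200 detected genes upward if mitochondrial UMIs made up no more than 10%, and clustered with Seurat 5.3.0 (2000 variable genes without the members, 30 components, resolution 0.8). A cluster was named from its markers where at least 3 were raised 1.5-fold or more and markers of another class were not more frequent among its 10 top genes. These limits were chosen with the clusters in view. Clusters 5 and 12 stayed unnamed. UMIs were summed per class and library, with exact Poisson, conditional and binomial intervals at 95%. A count of 0 was taken to allow 3. Genes with at least 200 UMIs in APs entered the background of ratios of at least 0.2. Scrublet called 3.57% of WT and 4.77% of cKO cells as doublets, which were kept in the main values. Named genes from the lists were the 4 largest rises and falls among genes called with no overlap between genotypes, and for likeness the 3 highest r. Other alternatives were other scalings and filters, leaving out each culture, a sex term, other resolutions, fewer mitochondrial UMIs and equal weights of phases.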

Additional observations from a re-analysis of the deposited data

Results flagged for a closer look

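For 4 genes the difference between cKO and WT had opposite signs in the cultures and in APs, with cultures of the genotypes apart and an AP interval that excluded 0. Nes (log2 fold change 0.92 in the cultures, log2 ratio -0.28 in APs), Hopx (0.99 and -0.32) and Ptprz1 (0.42 and -0.042) were higher in the cultures and lower in APs, and Lpar1 (-2.05 and 0.12) was the reverse. The AP interval included 0 for Ptprz1 once doublets were removed (-0.020, interval -0.061 to 0.022) and for Lpar1 at resolution 0.4 (0.078, -0.0075 to 0.16). These AP ratios rest on summed UMIs. After thinning, mean UMIs per AP were not lower in cKO for Hopx (0.113 in WT, 0.114 in cKO) or Ptprz1 (3.22 and 3.29). The share of thinned APs with a Ptprz1 UMI was 84.0% in WT and 82.5% in cKO, so its AP direction is not settled. The thinned means kept the order for Nes (0.954 and 0.741) and Lpar1 (0.849 and 0.938). For Tnc and Mfge8 the sign differed between APs (-0.53 and -0.16) and GE cells (0.90 and 0.66). The GE value of Tnc rested on 21 UMIs in WT and 52 in cKO (1.95 and 3.65 CPM), so it is near the floor. None of these differences between settings was tested, since the embryos were 1 per genotype. Tnc also gave a signal in cluster 5, which has a median of 1207 UMIs per cell and no name: it stood at 59.6 CPM in WT (64 UMIs) and 50.3 CPM in cKO (69 UMIs), above every named class but APs in both embryos.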

How the results depend on the processing

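The 6 genes called in the cultures kept their direction and their side of the threshold in all 14 alternatives (other scalings, filters and tools, the block, the sex term and each culture left out). The count of genes called was 6 or 7, and over the cultures left out it was 6 to 7. The added gene was Vim, called with the sex term (adjusted p = 0.0212, edgeR) and without WT culture 1 (0.0158). The fit with the replicate number as a block called 7 of the 9 genes, Vim included (adjusted p = 0.0364, edgeR). Whether same-numbered cultures were paired is not given by the labels. Same-numbered WT and cKO cultures deviated together with r = 0.26, -0.05 and 0.12. For differently numbered cultures r ran from -0.34 to 0.29, so these values cannot decide it. The log2 fold change of Tnc, which was never called, ran from -0.069 to 0.099 over the cultures left out and changed sign without WT culture 3 or cKO culture 1. In APs the count of genes past the fold was 2 to 4 of 9. It was 2 at a limit of 0.3, where Nes was no longer past it, and 4 with phases weighted equally, where Lpar1 reached 0.23. Nes, Tnc and Hopx stayed below -0.2 in every alternative that recomputed their log2 ratio. Thinning was not among these alternatives. The lower Hopx level was not seen after it, but too few Hopx UMIs remained there to decide. The 5 genes highest in APs became 8 at resolution 0.4, at which endothelial cells, fibroblasts and pericytes form no named class, and 6 after doublets were removed. Depth limits Hopx and Tnc outside APs, where each rests on few UMIs per class.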
